A study of Mus musculus with 12 samples.

Results

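The 35 genes described here code for proteins of striated muscle, Tcap among them, the telethonin gene. They are 35 of 27837 gene names on the arrays. Tcap was picked because of its 24 h wave in these arrays, and the other 34 for their known part in striated muscle with earlier results of these arrays in view, so Tcap's own wave is described without a test. By textbook isoform class 12 are fast, 7 slow (some of these also cardiac), 6 cardiac and 1 developmental (Myh8), and 9, Tcap among them, are shared between fibre types. Each gene is represented by the probe of highest mean level among its probes with a value on all 12 arrays. A brighter Myh2 probe was marked an outlier on 1 array and so was left out.

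RNA was from whole urinary bladder of wild-type C57BL/6 females aged 10 weeks. All animals had 2 weeks in a cycle of 12 h light and 12 h dark before constant darkness, and death came at circadian time (CT) 0, 4, 8, 12, 16 or 20 h. Each time has 2 one-colour Agilent arrays, giving 12 in all. The labels do not say how long the darkness lasted or that an array held 1 mouse, so p-values measure the spread between arrays only.

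In striated muscle, thick filaments of myosin pull on thin filaments of actin when calcium binds troponin. Titin spans the sarcomere, and telethonin caps its end at the Z-disc. Myosin, troponin and calcium-handling proteins come in fast, slow and cardiac forms from separate genes. The bladder wall is built mainly of smooth muscle, which has its own actins and myosins and lacks sarcomeres, while the sphincter of the nearby urethra holds striated fibres. In bulk tissue, fewer cells of a type and less RNA per cell cannot be told apart.

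Levels are log2 processed intensities minus the array's 75th percentile, so 0 is that percentile and a difference of 1 is a doubling. The share of spots well above background lay between 64.2% and 70.2%, and no spot was saturated. Fixed lists of smooth muscle (11 of 11), urothelial (9 of 9) and fibroblast genes (6 of 6) were well above background on all 12 arrays. Each of 3 slides held both arrays of 2 neighbouring times (CT0 with CT4, CT8 with CT12, CT16 with CT20). Of the 35 genes, 31 were well above background on at least 4 arrays and entered the fits, 24 of them on all 12 arrays. The other 4 are Ckmt2 (above on 3 arrays), Myoz2 (3), Myl2 (1) and Pvalb (0).

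A trio of arrays stood apart: CT0 replicate 1, CT4 replicate 1 and CT8 replicate 2. These were the 3 brightest of 12 in 14 of the 35 genes, and in 12 of the 31 that entered the fits, where 0.965% of all 18557 genes tested had the same 3 arrays on top. The trio was picked after the values of these genes were seen, so these shares are descriptions. Myot was well above background on 4 arrays, the minimum for the fits, with the trio among them. Neb and Myoz1 were so on 6 arrays each, again with the trio among them. These genes therefore met the minimum only through the trio. Among genes well above background on all 12 arrays, Tcap apart, the trio was on top in 5 of 23. Of all such genes it was on top in 116 of 16674. The trio comes from 3 different times and 2 slides, and for some genes the fitted fold is also given from the other 9 arrays. The heat map of all 35 genes shows this block beside genes that hardly varied.

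**Figure D1:**
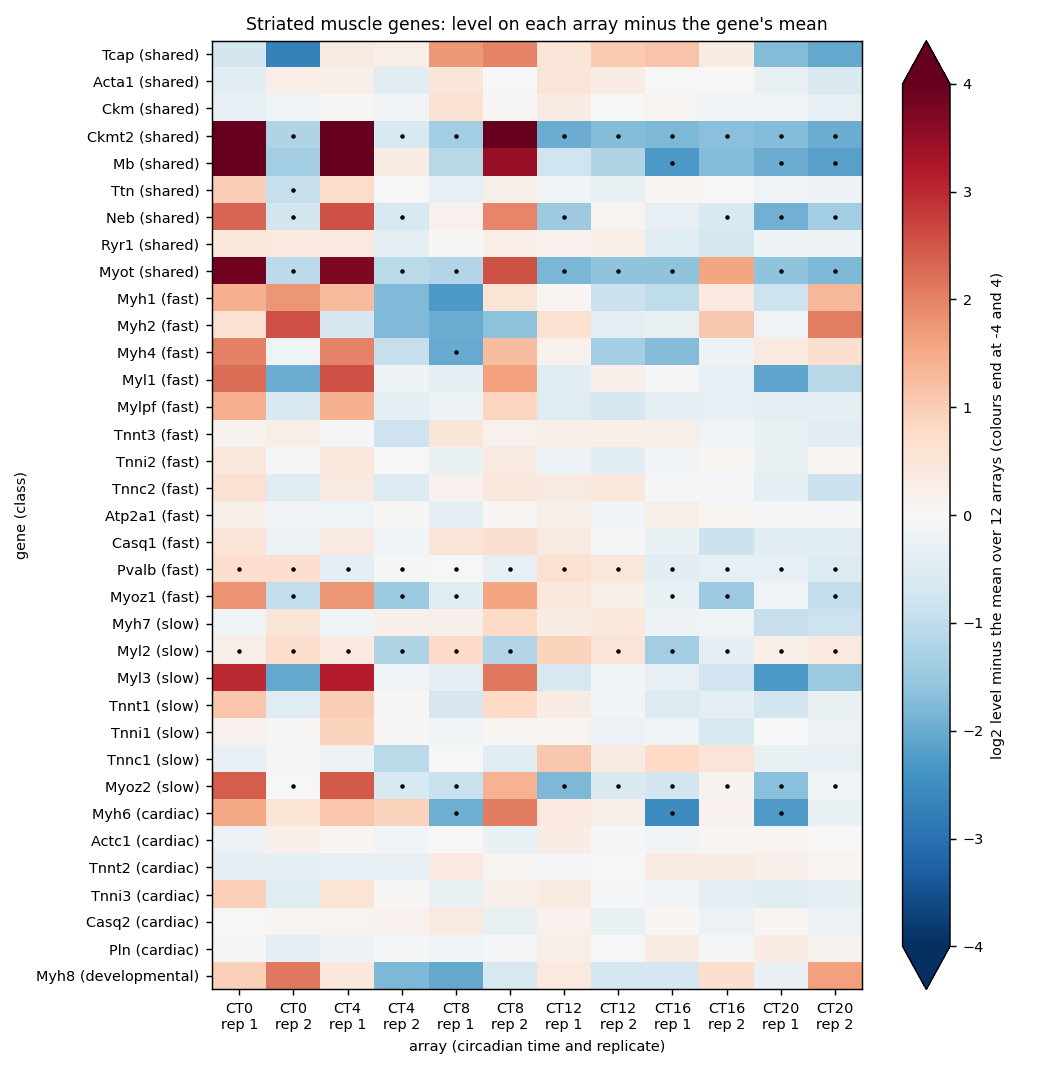
Level of each of the 35 genes on each of 12 arrays minus that gene's mean over the arrays (colour, log2), with arrays in order of circadian time and genes grouped by class. Black points mark arrays where the probe was not well above background. Ckmt2, Mb, Neb, Myot, Myl1 and Myl3 are high on CT0 replicate 1, CT4 replicate 1 and CT8 replicate 2, whereas Tcap is high on both CT8 arrays and Myh2 is highest on CT0 replicate 2.

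Across the 6 times the 24 h wave was tested in limma with a moderated F-test on cosine and sine terms and Benjamini-Hochberg adjustment over all 18557 genes. Of the 30 tested genes other than Tcap, 0 passed an adjusted p of 0.05, where 0.62% of all genes did. At an unadjusted p of 0.05, 10 of the 30 (33.3%) fell under the threshold, against 15.6% of all genes. Without the trio of arrays this was 8 (26.7%), against 12.7% of all genes, and with slide as a fixed block 2 (6.67%), against 13.8%. Among genes well above background on all 12 arrays these counts were 9 of 23 (39.1%), against 16.1% of all such genes. The fitted fold of peak over trough had a median of 2.24 in fast, 2.08 in slow and 1.38 in cardiac genes and 1.61 in shared genes other than Tcap, against 1.18 over all genes. Without the trio these medians were 2.11, 2.08, 1.38 and 1.52, against 1.22 over all genes. Peak times lay in the first 12 h of the cycle in 22 of the 30 (73.3%), against 45.9% of all genes, and without the trio in 17 (56.7%), against 44.6%. With slide as a fixed block they did so in 15 (50%), against 50.6%, which is near the background. Without the trio of arrays the count passing stayed at 0, with 19 genes of all called on those 9 arrays.

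A 1-way limma fit, which assumes no wave shape, gave the same count. Of the 30 genes, 0 differed between the 6 times at an adjusted p of 0.05, where 0.0754% of all genes did. Unadjusted, 6 of 30 (20.0%) were under 0.05, against 19.1% of all genes, which is near the background. The plot of variance shares shows how much of each gene's variation lay between the 2 arrays of a time. That share ran between 4.85% for Tnnt2 and 84.8% for Casq2.

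**Figure D2:**
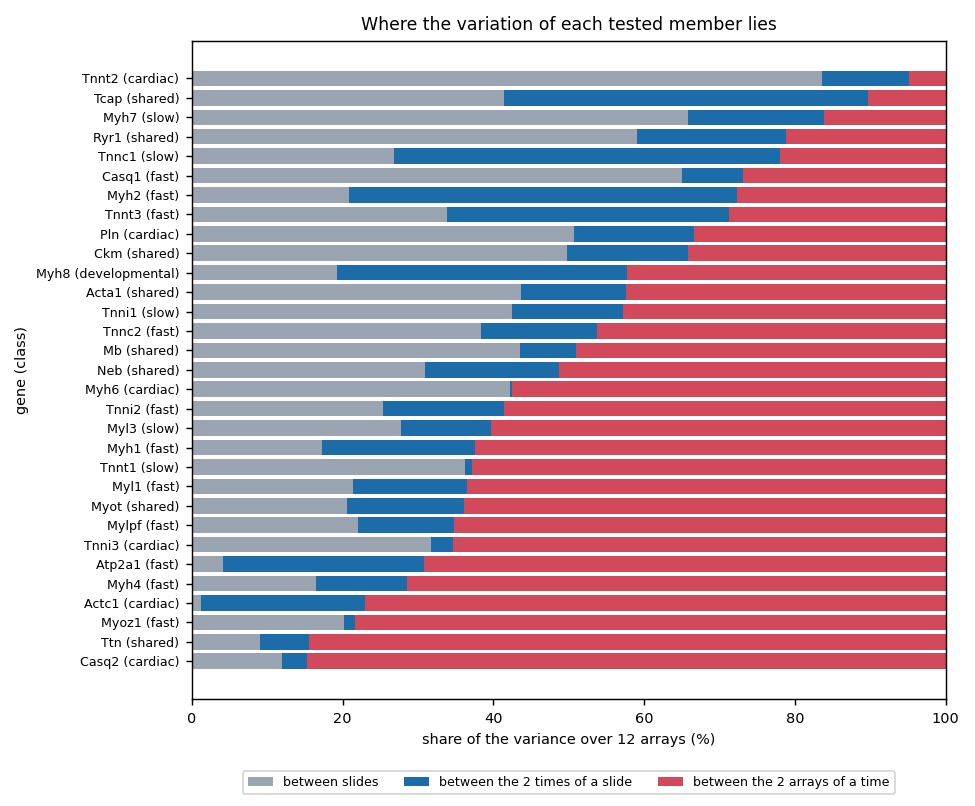
Share of each tested gene's variance over 12 arrays (x axis, %) that lay between the 3 slides (grey), between the 2 times of a slide (blue) and between the 2 arrays of a time (red), with genes ordered by the last share. Tnnt2 and Tcap have the least variance between arrays of a time (4.85% and 10.3%), and Casq2 and Ttn the most (84.8% and 84.5%).

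Tcap codes for telethonin, the small protein that caps titin at the Z-disc. Its single probe lies at chr11:98493852-98493911 (mm7, plus strand). Tcap levels were 0.84 and -1.13 at CT0, 1.91 and 1.80 at CT4, 3.29 and 3.55 at CT8, 2.05 and 2.60 at CT12, 2.69 and 1.85 at CT16, and -0.18 and -0.50 at CT20. Both CT8 arrays were above the other 10, both CT20 arrays and CT0 replicate 2 were the only ones below 0, and the CT0 pair spread by 1.98. The fitted wave had a fold of 12.1 (8.11 to 18.0 at 1 SE of the amplitude) with its peak at CT 9.84 ± 0.61 h (SE). Between times that share a slide, Tcap was higher at CT4 than at CT0 by 2.00, lower at CT12 than at CT8 (-1.09) and lower at CT20 than at CT16 (-2.61), all in log2 means of 2 arrays. Over 24 other settings of processing and array choice the fitted fold lay between 8.98 and 42.9 (the higher value with slide as a fixed block), and the peak between CT 9.26 and CT 10.4.

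Clock genes on the same arrays give a frame for that time. Dbp, a transcription factor of the clock's output, peaked at CT 9.50 with a fold of 18.2 (limma adjusted p = 2.05e-05), and Ciart, a repressor of the clock, at CT 9.77 with a fold of 50.6 (limma adjusted p = 0.000281). Nr1d1, which codes for the repressor REV-ERB alpha, peaked at CT 6.82, Per2, a core repressor, at CT 12.7, and Arntl, the core activator BMAL1, at CT 22.5, with folds of 11.6, 5.06 and 8.95. All 5 passed the adjusted threshold in limma. Tcap's fitted peak lay beside those of Dbp and Ciart.

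Among 16650 other names well above background on all arrays, the 10 of highest Pearson correlation with Tcap over 12 arrays were Igsf8 (0.95), Bche (0.93), Park2 (0.92), Cdkn1c (0.92), Fgl2 (0.91), Rasd2 (0.90), Rassf2 (0.90), Cd163 (0.90), Atp1b1 (0.90) and Dbp (0.89). Bche codes for butyrylcholinesterase, Cdkn1c for the cell-cycle inhibitor p57 and Cd163 for a scavenger receptor of macrophages. Arrays share time and slide, so these correlations are descriptions and carry no p. The fitted folds of the first 9 were small beside that of Tcap, between 1.18 for Igsf8 and 2.17 for Rasd2. The mean of the adipocyte marker list (8 of 8 on the array, 6 well above background on all arrays) also moved with Tcap, with a correlation of 0.67 over 12 arrays and 0.77 over the 9 without the trio. That list's centred mean ran between -2.09 on CT0 replicate 2, where Tcap was lowest, and 1.30 on CT4 replicate 1, and its part in Tcap's pattern was not tested. The mean of the further striated muscle list described below correlated with Tcap at 0.44 over 12 arrays and 0.78 over the 9.

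The other striated muscle genes varied in how they moved beside Tcap. Their correlation with Tcap had a median of 0.23 over 30 genes, against -0.05 over all genes, and ran between -0.78 for Myh2 and 0.69 for Ckm. It was at least 0.5 in 4 of 30 (13.3%), against 7.73% of all genes, and at most -0.5 in 3 of 30 (10.0%), against 8.51%. The 4 were Ckm (0.69), Tnnc2 (0.65), Myl1 (0.53) and Myh7 (0.53), and the 3 were Myh2 (-0.78), Myh8 (-0.74) and Myh1 (-0.54). With the mean of each time removed the 4 correlations were -0.21 for Ckm, 0.75 for Tnnc2, 0.75 for Myl1 and -0.51 for Myh7. The 3 negative ones were then -0.75 for Myh2, -0.46 for Myh8 and -0.18 for Myh1. On the 9 arrays without the trio the correlation with Tcap had a median of 0.26 over 30 genes, against -0.07 over all genes. It ran between -0.78 for Myh4 and 0.90 for Myl3, with Myl1 next at 0.89. The Spearman (rank) correlations of Myl3 and Myl1 on those 9 arrays were 0.68 and 0.67. Over 12 arrays less the 2 where Tcap lay farthest from its median, they had Pearson correlations of 0.21 and 0.28.

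Acta1 (skeletal alpha-actin of the thin filament) and Ckm (the creatine kinase of the muscle cytosol) were the brightest shared genes besides Tcap. Acta1 levels were 5.09 and 5.82 at CT0, 5.77 and 5.11 at CT4, 6.03 and 5.57 at CT8, 6.08 and 5.84 at CT12, 5.57 and 5.52 at CT16, and 5.25 and 4.97 at CT20. Both arrays of CT20 were low, both arrays of CT12 were high, and the arrays of CT0 and of CT4 lay far apart. Ckm levels were 1.89 and 2.04 at CT0, 2.25 and 2.12 at CT4, 2.81 and 2.27 at CT8, 2.53 and 2.23 at CT12, 2.32 and 2.11 at CT16, and 2.11 and 1.89 at CT20. Its CT8 and CT12 means were the highest, and the CT12 pair overlapped those of CT4, CT8 and CT16. The fitted fold was 1.61 for Acta1 (limma adjusted p = 0.294, peak CT 10.1) and 1.47 for Ckm (limma adjusted p = 0.165, peak CT 9.83), so neither passed. The levels of both genes had a correlation of 0.78 over the 12 arrays and 0.75 over the 9.

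**Figure D3:**
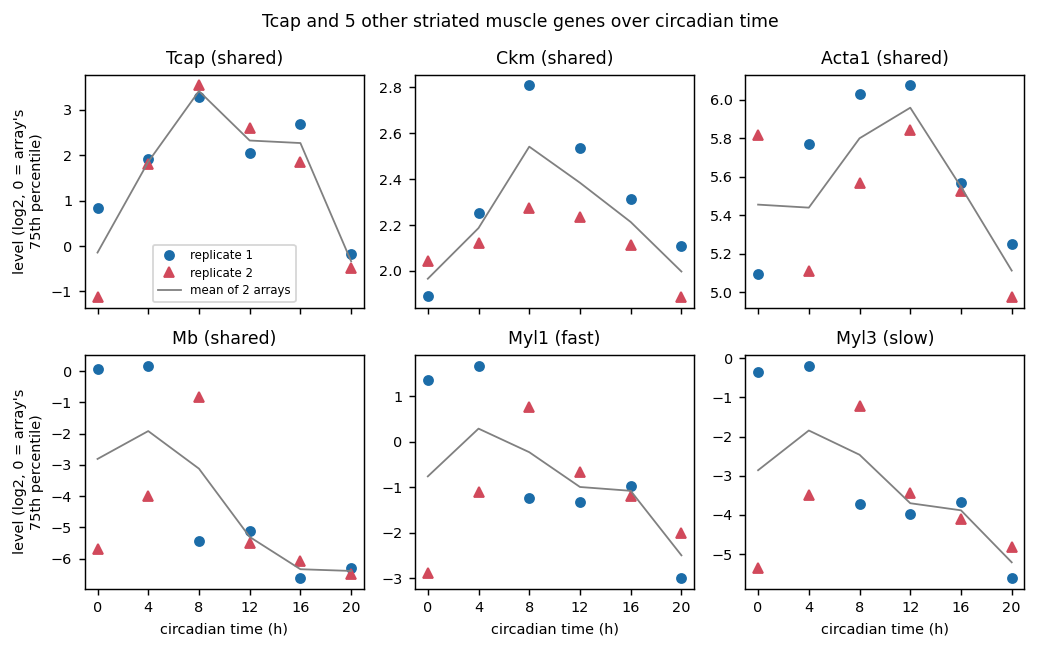
Level (y axis, log2, 0 = the array's 75th percentile) against circadian time (x axis, h) for Tcap, Ckm, Acta1, Mb, Myl1 and Myl3, with 1 point per array, circles for replicate 1 and triangles for replicate 2, and a grey line through the mean of 2 arrays. Tcap's pairs lie farthest apart at CT0 and at CT16, whereas Mb, Myl1 and Myl3 split widely within CT0, CT4 and CT8.

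The widest ranges among shared genes belonged to Ckmt2, Mb and Myot. Mb codes for myoglobin, the oxygen store of slow and oxidative fibres and of heart. Mb levels were 0.06 and -5.68 at CT0, 0.17 and -4.01 at CT4, -5.43 and -0.82 at CT8, -5.11 and -5.50 at CT12, -6.62 and -6.06 at CT16, and -6.29 and -6.50 at CT20. The trio of arrays lay between -0.82 and 0.17 and all others below -4. Within a time, the brighter array exceeded its partner by 53.6-fold at CT0, 18.2-fold at CT4 and 24.5-fold at CT8. On CT0 replicate 2 the level of -5.68 was close to -6.09, the lowest level well above background on that array. The harmonic fit gave Mb a fold of 29.6 (10.3 to 85.0 at 1 SE) with limma adjusted p = 0.256. Mb was well above background on 9 arrays, so its trough lies near background and this fold is inexact. Without the trio the fold was 3.82 (limma adjusted p = 0.221).

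Myot codes for myotilin of the Z-disc and was well above background on 4 arrays. Myot levels were -3.26 and -8.15 at CT0, -3.38 and -8.18 at CT4, -8.27 and -4.55 at CT8, -8.94 and -8.70 at CT12, -8.70 and -5.54 at CT16, and -8.71 and -8.89 at CT20. The trio and CT16 replicate 2 were above -6 and the other 8 arrays below -8. Ckmt2 (sarcomeric mitochondrial creatine kinase) was well above background on the trio alone, and is named because of its range of 7.13. There it exceeded its partner array by at least 12.0-fold at CT0, 21.1-fold at CT4 and 11.1-fold at CT8, the partner being set at the lowest signal well above background. Neb (nebulin, along the thin filament) exceeded its partner by at least 5.41-fold at CT0 and at least 7.89-fold at CT4, and by 3.48-fold at CT8. Another Neb probe, well above background on 9 arrays, had a correlation of 0.56 with this one. Its fitted peak was at CT 1.58, against CT 5.12 for the chosen probe.

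Ttn (titin) has 9 probes that disagreed. The brightest had the trio on top with a range of 1.92 and a fitted fold of 1.27. Another probe, well above background on 4 arrays, had a range between -8.57 and -2.30, and its correlation with the first was 0.72. Ryr1, the calcium release channel of skeletal muscle, varied little, between -3.27 and -2.12, and its fitted fold of 1.52 did not pass (limma adjusted p = 0.416).

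Among fast genes, Myl1 and Mylpf, the essential and regulatory light chains of myosin, had the trio on top and were well above background on all arrays. Their RefSeq promoter windows (GRCm38.p6, 250 bases before to 50 after the start) are shown because both genes moved with the trio. Capitals mark matches, on either strand, to CAGCTG (a form of E-box, the kind of site that myogenic factors such as MyoD bind), CACGTG (the E-box form of the clock factors), CTANNNNTAG (the frame of sites of the MEF2 family) or TATAAA (the core of a TATA box).
Myl1, chr1:66945007-66945306 (minus strand): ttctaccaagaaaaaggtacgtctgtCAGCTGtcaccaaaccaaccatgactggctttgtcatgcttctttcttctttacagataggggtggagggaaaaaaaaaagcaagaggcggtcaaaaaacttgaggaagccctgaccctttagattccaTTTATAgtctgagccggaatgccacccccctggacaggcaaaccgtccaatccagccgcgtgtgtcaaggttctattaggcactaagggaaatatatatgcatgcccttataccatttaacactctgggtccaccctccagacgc
Mylpf, chr7:127211358-127211657 (plus strand): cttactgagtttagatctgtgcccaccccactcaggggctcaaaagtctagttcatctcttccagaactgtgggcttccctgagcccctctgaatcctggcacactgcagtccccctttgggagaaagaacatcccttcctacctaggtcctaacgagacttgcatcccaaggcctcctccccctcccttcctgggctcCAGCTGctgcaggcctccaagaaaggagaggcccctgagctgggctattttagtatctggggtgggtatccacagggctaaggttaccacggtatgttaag
Both windows hold CAGCTG and neither holds CACGTG or CTANNNNTAG. Of the 35 genes, 29 matched the promoter table with 36 windows; Tcap, Myot, Myoz1, Neb, Tnni2 and Tnnt3 have none. CAGCTG was in 17 of the 36 windows (47.2%), against 16.3% of all 32851 windows, and TATAAA in 11 (30.6%), against 13.6%. CTANNNNTAG, which can overlap TATAAA, was in 2 (5.56%), against 3.69%, and CACGTG in 0, against 7.15%. A match describes letters in a window and is no evidence of a bound factor.

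Myl1 levels were 1.35 and -2.88 at CT0, 1.67 and -1.10 at CT4, -1.23 and 0.77 at CT8, -1.32 and -0.67 at CT12, -0.97 and -1.19 at CT16, and -2.99 and -2.00 at CT20. Only the trio was above 0, and CT20 replicate 1 and CT0 replicate 2 were lowest. The brighter array exceeded its partner by 18.7-fold at CT0, 6.79-fold at CT4 and 4.01-fold at CT8. Mylpf, the regulatory chain, exceeded its partner by 4.14-fold, 3.52-fold and 2.10-fold at the same times, and its other 9 arrays lay between -2.83 and -2.36. Myl1's fitted fold was 4.29 on 12 arrays and 3.53 on 9 (limma adjusted p = 0.490 and 0.288), and Mylpf's was 2.24 on 12 arrays and 1.01 on 9 (limma adjusted p = 0.453 and 0.998). The adipocyte list's mean correlated with Myl1 at 0.71 over 12 arrays and 0.88 over 9, a part that was not tested.

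Tnnc2, Tnni2 and Tnnt3 are the fast forms of troponin C, I and T. Tnnc2 levels were 3.45 and 2.37 at CT0, 3.19 and 2.31 at CT4, 3.0 and 3.29 at CT8, 3.19 and 3.28 at CT12, 2.81 and 2.79 at CT16, and 2.44 and 2.00 at CT20. CT12 was high on both arrays, whereas the pairs of CT0 and CT4 spread by 1.08 and 0.88. Tnni2 levels were 2.50 and 1.98 at CT0, 2.45 and 2.01 at CT4, 1.77 and 2.41 at CT8, 1.82 and 1.60 at CT12, 1.93 and 2.11 at CT16, and 1.75 and 2.15 at CT20. The trio was on top by a small step, and the groups overlapped. Fitted folds were 1.67 for Tnnc2, 1.34 for Tnni2 and 1.36 for Tnnt3, with limma adjusted p of 0.416, 0.485 and 0.602.

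Of the remaining fast genes, Atp2a1 (the calcium pump SERCA1) varied by 0.61 over 12 arrays with a fitted fold of 1.13. A second Atp2a1 probe, well above background on 4 arrays, did not follow the first (correlation 0.14). It ranged between -8.81 and -3.53 with a fitted fold of 12.5, its trough lying in background. Casq1 (calsequestrin 1, the calcium store of fast fibres) had a fold of 2.00 with its peak at CT 6.48 and an unadjusted p of 0.00713 in limma, which did not pass (adjusted p = 0.157). Its variance lay mostly between slides (65.1%). Myoz1, a Z-disc protein that binds calcineurin, was well above background on 6 arrays and exceeded its partner array by at least 3.45-fold, 4.19-fold and 3.42-fold on the trio. Pvalb (parvalbumin, the calcium buffer of the fastest fibres) was not well above background on any array.

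The fast and perinatal myosin heavy chain genes come next. Myh2 (IIa), Myh1 (IIx), Myh4 (IIb) and Myh8 (perinatal) lie in one cluster on chromosome 11 and are close in sequence, so how far their probes share signal is uncertain. Promoter windows of these are shown, with matches to the same 4 motifs in capitals, because Myh2, Myh8 and Myh1 moved together.
Myh2, chr11:67170777-67171076 (plus strand): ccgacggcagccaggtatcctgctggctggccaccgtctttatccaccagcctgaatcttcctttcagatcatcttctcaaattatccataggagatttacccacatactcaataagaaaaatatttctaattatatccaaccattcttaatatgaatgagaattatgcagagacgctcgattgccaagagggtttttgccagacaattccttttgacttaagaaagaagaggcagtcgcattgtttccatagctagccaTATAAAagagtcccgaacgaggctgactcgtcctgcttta
Myh8, chr11:67276874-67277173 (plus strand): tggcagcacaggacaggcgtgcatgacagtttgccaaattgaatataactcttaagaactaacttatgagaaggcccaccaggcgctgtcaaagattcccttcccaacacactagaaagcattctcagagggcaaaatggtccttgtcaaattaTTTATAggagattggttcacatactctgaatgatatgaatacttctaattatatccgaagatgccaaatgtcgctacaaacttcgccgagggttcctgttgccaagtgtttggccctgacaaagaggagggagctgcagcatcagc
Myh1, chr11:67199852-67200151 (plus strand): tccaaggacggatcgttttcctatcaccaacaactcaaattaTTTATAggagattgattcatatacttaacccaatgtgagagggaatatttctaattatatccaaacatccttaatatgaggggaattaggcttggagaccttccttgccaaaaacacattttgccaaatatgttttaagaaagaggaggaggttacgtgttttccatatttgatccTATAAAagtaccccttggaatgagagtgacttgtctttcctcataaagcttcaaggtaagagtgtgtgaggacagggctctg
Each holds TATAAA on one strand or the other, and none holds CAGCTG or any of the other motifs.

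Myh2 levels were 2.26 and 4.22 at CT0, 0.97 and -0.13 at CT4, -0.34 and -0.00 at CT8, 2.25 and 1.24 at CT12, 1.33 and 2.72 at CT16, and 1.50 and 3.67 at CT20. CT0 replicate 2 and CT20 replicate 2 were highest, and both CT8 arrays and CT4 replicate 2 were lowest. Myh8 levels were 2.35 and 3.52 at CT0, 1.84 and -0.39 at CT4, -0.63 and 0.76 at CT8, 1.78 and 0.70 at CT12, 0.69 and 2.06 at CT16, and 1.13 and 3.03 at CT20. Here too CT0 replicate 2 and CT20 replicate 2 led. Myh1 levels were -0.25 and 0.09 at CT0, -0.43 and -3.46 at CT4, -3.99 and -1.15 at CT8, -1.60 and -2.55 at CT12, -2.71 and -1.31 at CT16, and -2.51 and -0.35 at CT20. CT0 replicate 2 again led, but CT0 replicate 1 and CT20 replicate 2 followed closely and the range was 4.09.

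The fitted wave of Myh2 had a fold of 7.31 (4.16 to 12.8 at 1 SE) and a peak at CT 19.9 ± 1.08 h (SE), about opposite in phase to Tcap. Its unadjusted p in limma was 0.0155 and its adjusted p was 0.212, so it did not pass. Its fold was 11.9 without CT20 replicate 1 (limma adjusted p = 0.152) and 49.6 with slide as a fixed block (limma adjusted p = 0.252), and in 24 other settings the adjusted p ran between 0.152 and 0.471. Myh8 had a fold of 4.63 and a peak at CT 21.1 (limma adjusted p = 0.327), and Myh1 a fold of 3.59 and a peak at CT 22.7 (limma adjusted p = 0.509). Without the trio the folds were 6.94, 5.78 and 4.89 (limma adjusted p = 0.471, 0.476 and 0.523).

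**Figure D4:**
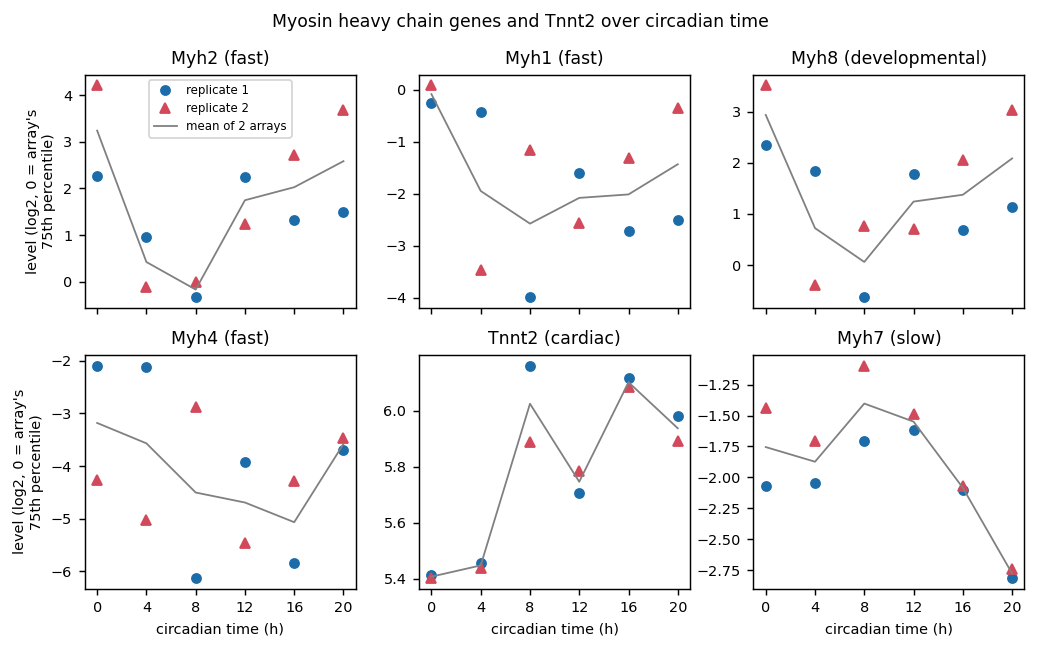
Level (y axis, log2, 0 = the array's 75th percentile) against circadian time (x axis, h) for Myh2, Myh1, Myh8, Myh4, Tnnt2 and Myh7, with 1 point per array, circles for replicate 1 and triangles for replicate 2, and a grey line through the mean of 2 arrays. Myh2 and Myh8 are lowest in mean at CT8 and highest at CT0, Tnnt2 is low at CT0 and CT4, and Myh7 is lowest at CT20.

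Over the 9 arrays outside the trio, Myh8 and Myh1 followed Myh2 along a line with correlations of 0.998 and 0.994. Over all 12 arrays these were 0.93 and 0.72. On the trio Myh8 lay above that line by 0.63, 1.30 and 1.10 (CT0, CT4, CT8) and Myh1 by 1.41, 2.37 and 2.49, where the residual SD on the 9 arrays was 0.10 and 0.16. Myh4 lay above its own line by 2.40, 2.94 and 2.60 with a residual SD of 0.74. Myh4 itself had the trio on top and ranged between -6.13 and -2.09. A further Myh2 probe followed the chosen one with a correlation of 0.988, and the brighter one that was left out followed it over 11 arrays with 0.9996. Myh8 had 3 other probes, well above background on 0, 0 and 1 arrays, so its pattern rests on the single probe at chr11:67389989-67390048 (mm7, plus strand). Of Myh1's 2 other probes, 1 was well above background on 0 arrays and the other is annotated to the opposite strand, so neither checks the chosen one.

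**Figure D5:**
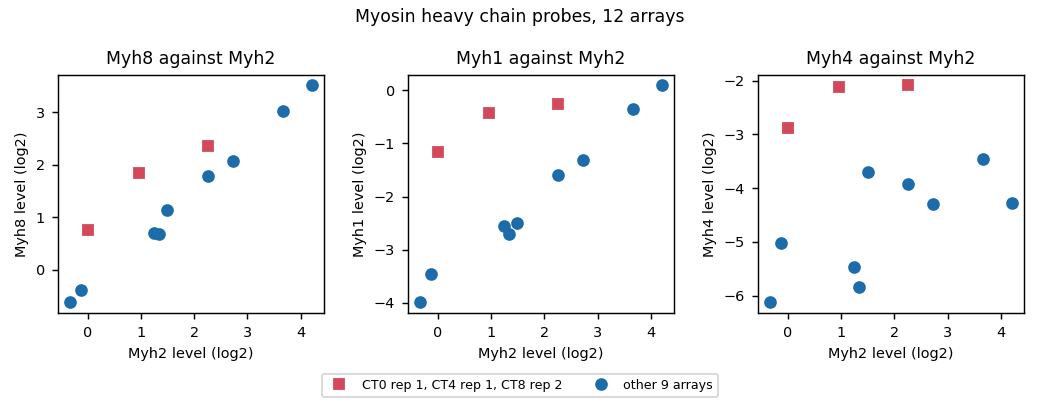
Level of Myh8, Myh1 and Myh4 (y axes, log2) against the level of Myh2 (x axes, log2) on each of 12 arrays, with squares for CT0 replicate 1, CT4 replicate 1 and CT8 replicate 2 and circles for the other 9. The circles of Myh8 and Myh1 fall along a line (correlations of 0.998 and 0.994), and the squares lie above it.

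Slow genes differed among themselves. Tnnt1 (slow troponin T) levels were 1.52 and -0.08 at CT0, 1.39 and 0.45 at CT4, -0.27 and 1.20 at CT8, 0.69 and 0.30 at CT12, -0.16 and 0.01 at CT16, and -0.36 and 0.11 at CT20. The trio was highest, by 0.51 over the next array. Myl3 (the essential light chain of slow fibres and ventricle) levels were -0.36 and -5.36 at CT0, -0.19 and -3.50 at CT4, -3.72 and -1.21 at CT8, -3.98 and -3.43 at CT12, -3.67 and -4.10 at CT16, and -5.61 and -4.81 at CT20. On the trio it exceeded its partner by 32.2-fold, 9.92-fold and 5.72-fold at CT0, CT4 and CT8. A second Myl3 probe did not show this, with a range between -3.81 and -3.13 and a correlation of -0.34 with the first.

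Myh7 (the slow and cardiac beta heavy chain) levels were -2.07 and -1.44 at CT0, -2.04 and -1.70 at CT4, -1.71 and -1.10 at CT8, -1.61 and -1.48 at CT12, -2.10 and -2.07 at CT16, and -2.81 and -2.74 at CT20. CT20 was lowest on both arrays and did not overlap any other time, and CT8 replicate 2 was highest. Its fitted fold was 2.08 (1.72 to 2.51 at 1 SE) with a peak at CT 7.99, an unadjusted p of 0.00896 and an adjusted p of 0.173 in limma. With CT0 replicate 2 left out, Myh7 passed with a fold of 2.38 (limma adjusted p = 0.0494), the 1 pass among 712 comparisons under 24 other settings; its adjusted p over those ran between 0.0494 and 0.688. Of Myh7's variance, 65.8% lay between slides and 18.1% between the times of a slide. Its mean was lower at CT20 than at CT16, which share a slide (-0.69, log2). A second Myh7 probe, overlapping the first, gave a fold of 2.02. Myh6, its cardiac neighbour on chromosome 14, had the trio on top instead.

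Tnnc1, the troponin C of slow muscle and heart, peaked apart from the other slow genes. Tnnc1 levels were -5.10 and -4.81 at CT0, -4.99 and -5.86 at CT4, -4.76 and -5.24 at CT8, -3.71 and -4.45 at CT12, -3.99 and -4.27 at CT16, and -5.07 and -5.10 at CT20. CT12 and CT16 were higher on both arrays than every other array, and CT4 replicate 2 was lowest. The fitted fold was 2.39 (1.94 to 2.95 at 1 SE) with a peak at CT 14.3, an unadjusted p of 0.00582 and an adjusted p of 0.147 in limma. Tnni1 (slow troponin I) had a fold of 1.59 (limma adjusted p = 0.298). Myoz2, the slow and cardiac relative of Myoz1, was well above background on the trio only, and Myl2, the slow regulatory light chain, on 1 array.

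Cardiac forms included the gene of smallest spread, Actc1, with an SD of 0.17 over 12 arrays. Actc1 (cardiac alpha-actin) levels were 5.80 and 6.26 at CT0, 6.13 and 5.92 at CT4, 6.04 and 5.78 at CT8, 6.35 and 5.97 at CT12, 5.94 and 6.12 at CT16, and 6.17 and 6.04 at CT20. They spanned 0.58, and the times overlapped. Whether the Actc1 and Acta1 probes share signal with Acta2 of the smooth muscle list (mean level 8.56) was not tested. Nor was the cell type behind their signal. Casq2 (calsequestrin 2, of slow and cardiac muscle) levels were 0.97 and 1.05 at CT0, 1.08 and 1.13 at CT4, 1.32 and 0.67 at CT8, 1.15 and 0.68 at CT12, 1.04 and 0.75 at CT16, and 1.03 and 0.75 at CT20. Replicates of 1 time spread as far as the times did. Fitted folds were 1.09 for Actc1 and 1.16 for Casq2, with limma adjusted p of 0.857 and 0.724.

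Tnnt2 (cardiac troponin T) levels were 5.41 and 5.40 at CT0, 5.46 and 5.44 at CT4, 6.16 and 5.89 at CT8, 5.71 and 5.79 at CT12, 6.12 and 6.09 at CT16, and 5.98 and 5.89 at CT20. A second Tnnt2 probe, well above background on 5 arrays, had a correlation of 0.14 with this one. On the chosen probe, all 4 arrays of CT0 and CT4 lay below the 8 of the later times, and arrays of 1 time differed by at most 0.27. Its 1-way limma test gave the lowest p of the 30 genes, 0.000423 unadjusted and 0.0919 adjusted, which did not pass. With normexp background correction the adjusted p was 0.0458 and with the authors' deposited values 0.0346. Of its variance, 83.6% lay between slides, CT0 and CT4 being those of 1 slide, and with slide as a fixed block the adjusted p was 0.349. Over all 23 other settings it ran between 0.0346 and 0.349.

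Myh6 (the cardiac alpha heavy chain) levels were -3.91 and -4.90 at CT0, -4.32 and -4.51 at CT4, -7.40 and -3.36 at CT8, -5.06 and -5.21 at CT12, -7.96 and -5.29 at CT16, and -7.70 and -5.74 at CT20. The trio was highest, CT8 replicate 1, CT16 replicate 1 and CT20 replicate 1 were not well above background, and the fold of 4.55 did not pass (limma adjusted p = 0.466), nor did that of 2.38 without the trio (limma adjusted p = 0.834). Tnni3 (cardiac troponin I) levels were -2.86 and -4.31 at CT0, -3.27 and -3.75 at CT4, -4.07 and -3.61 at CT8, -3.46 and -3.89 at CT12, -3.92 and -4.15 at CT16, and -4.23 and -4.19 at CT20. CT0 replicate 1 was highest and its partner lowest. Pln (phospholamban, which restrains the calcium pump) ranged between -4.01 and -3.33 with a fold of 1.32 and a peak at CT 16.0 (limma adjusted p = 0.292).

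Other striated muscle genes, from a list of 78 of which 77 were on the array and 61 entered the fits, extended these patterns. In limma, 1 of 61 had a wave at an adjusted p of 0.05, and 0 differed between the times, where 0.62% and 0.0754% of all genes did. That gene was Asb2, part of a ubiquitin ligase that targets filamins in muscle, with a fold of 1.84 and a peak at CT 0.57 (limma adjusted p = 0.0332). Its levels on the 4 arrays of CT0 and CT4, which share a slide, were the highest, between 2.13 and 2.22, and with slide as a fixed block its fold was 1.49 (limma adjusted p = 0.430). Without the trio the fold was 1.82 (limma adjusted p = 0.174). Unadjusted, 21 of 61 were under 0.05 for the wave in limma, where 15.6% of all genes were. This count was not repeated without the trio or with slide as a fixed block. The 3 largest fitted folds were 27.8 for Sln (sarcolipin, an inhibitor of the calcium pump), 15.4 for Csrp3 (a Z-disc LIM protein) and 5.46 for Cox6a2 (the striated muscle form of a cytochrome oxidase subunit), with limma adjusted p of 0.326, 0.360 and 0.319. Csrp3 was well above background on 4 arrays and Sln on 9, so the trough of each lies near background and its fold is inexact. Without the trio the folds were 4.08, 1.87 and 1.60.

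Those 3 genes had the trio on top. Sln was at 0.44 on CT0 replicate 1, 0.22 on CT4 replicate 1 and -0.79 on CT8 replicate 2, and the next array lay 3.80 lower. For Csrp3 the step was 3.41 and for Cox6a2 2.12. In all, 18 of the 61 listed genes had the same 3 arrays on top, against 0.965% of all genes. Of these 18, Csrp3 was well above background on 4 arrays and Mybph on 6. The trio may thus have carried both past the minimum of 4 arrays, so this share is a description. Of all 18557 genes, 13 (0.0701%) had a step of at least 1 there: Mb, Myl3, Neb, Myl1, Myoz1 and Mylpf of the 35, Sln, Csrp3, Cox6a2, Smpx, Pgam2, Mybph and Nrap of the further list. That these 13 are all from the muscle lists was seen after the values were. Among them, Neb and Myoz1 met the minimum of 4 arrays only through the trio, and Csrp3 and Mybph may have done so. At any step, 179 genes had the trio on top, 12 of them from the 35 and 18 from the further list. Genes outside the muscle lists came not far below a step of 1, such as Htr3a (0.88) and Ptprn (0.84). The smooth muscle, urothelial, fibroblast, adipocyte and hepatocyte lists had 0 tested genes with the trio on top, and the nerve and Schwann cell list 1 of 6.

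Patterns like the mean of the 11 centred fast genes were led by Smpx (a small muscle protein, correlation 0.89), Disp2 (0.89), Synpo2l (0.88), Crhr2 (0.88), Nrsn1 (0.86), Cox6a2 (0.85), 2310039E09Rik (0.85), Tagln3 (0.84), Trim54 (0.84) and Pcsk1n (0.83). That mean was highest on CT0 replicate 1 (1.05), CT4 replicate 1 (0.84) and CT8 replicate 2 (0.54). Smpx, Synpo2l, Cox6a2 and Trim54 are genes of the further striated list, while Nrsn1, Tagln3 and Pcsk1n are best known from neurons. On the 9 arrays without the trio these correlations ran between -0.41 for Trim54 and 0.60 for 2310039E09Rik, with Disp2 and Crhr2 at 0.50, and each was lower than over all 12.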

How the data were processed

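Scanner files of 12 Agilent 1-colour arrays were analysed. Per the file headers, the deposited intensity per spot was made by Feature Extraction 10.5.1.1, and the deposited yes-or-no marks flag outliers and spots well above background. The authors' deposited value table holds log2 values of 27883 probes. The submitters' processing notes name R 2.8.1, with no normalisation given in the sources used here, so it served as an alternative.

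Outlier spots were dropped, log2 signals averaged per probe, and each array's 75th percentile subtracted. 40903 of 41174 probes had a value on every array. Each name took its brightest probe, and 18557 of 27837 names well above background on at least 4 arrays were tested. limma 3.58.1 (R 4.3.3) fitted a 24 h cosine and sine, and a 1-way model of 6 times, without covariates; p-values were Benjamini-Hochberg adjusted over these names (threshold 0.05). The code was tested on simulated data. A wave's fold is peak over trough. The number of arrays limits precision. Correlation of same-numbered arrays' deviations from the time means lay between -0.20 and 0.44 over 15 pairs of times (median 0.17). That does not settle whether the numbers pair arrays, so replicate number is a block in an alternative.

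Members and lists were chosen with earlier results of these data known. Given array by array are Tcap and, per class, the 3 genes of highest mean and the 3 of widest range; Ckmt2 was added. Named outside the members are the 10 nearest patterns, other striated genes past a threshold or of the 3 largest folds, and 5 clock genes. Promoter letters are from RefSeq (GRCm38.p6); probe positions come from the array files (mm7). Alternatives covered background correction, scaling, the authors' table, the filter, slide, replicate number, probe choice and leaving out arrays; outlier spots kept and the 9-array fit were chosen after seeing the data.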

Additional observations from a re-analysis of the deposited data

How the results depend on the processing

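For members other than Tcap, the count with a wave was 0 and the count differing between times was 0 in most settings. The wave count was 1 without CT0 replicate 2 (Myh7), a range of 0 to 1 over arrays left out in turn; for the times it was 0 throughout. The times count was 1 with normexp background correction and 1 with the authors' table, Tnnt2 in both, whose adjusted p was above 0.05 in all others run; the cause was not tested. With the replicate block it was 0 for both tests, and no call changed. A random slide block could not be fitted for the 1-way test, since each slide holds whole times. The median fold of cardiac genes moved from the reported 1.38 to 1.18 with normexp, 1.17 in the authors' table and 1.27 with slide as a fixed block. That of shared genes other than Tcap, reported as 1.61, was 3.54 with no filter and 2.38 with the mean of all probes, which bring in dim probes. Leaving out arrays in turn gave medians of 1.33 to 1.42 for cardiac, 1.75 to 3.0 for fast, 1.51 to 1.89 for shared and 1.85 to 2.39 for slow genes, and a median correlation with Tcap of 0.13 to 0.34. Genes called over the whole array ranged between 7 (slide as a fixed block) and 175 (filter on all 12 arrays), against 115 reported; 28 with a random slide block, 19 on 9 arrays and 63 with median scaling. Probes near background, such as those of Ckmt2, Myoz2, Myl2 and Pvalb, give bounds only.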

Other observations

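Further genes with CT0 replicate 1, CT4 replicate 1 and CT8 replicate 2 as their 3 brightest arrays, named after their values were seen, included Htr3a (a serotonin-gated channel of neurons, 0.88 above the next array), Ptprn (0.84), Slc5a7 (the choline transporter of cholinergic neurons, 0.70), Dbh (the noradrenaline-making enzyme of sympathetic neurons, 0.62) and Chga (chromogranin A, 0.55). Myog, the myogenic factor myogenin, was 0.92 above the next array and Actn2, alpha-actinin 2 of the Z-disc, 0.93.

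Hepatocyte genes varied widely on other arrays. Their centred mean was highest on CT20 replicate 2 (3.07) and CT12 replicate 2 (2.55) and lowest on CT20 replicate 1 (-2.45), with a correlation of -0.05 with Tcap and 0.25 with Myh2.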
